A study of Homo sapiens with 6 samples.

Results

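NRF2 is the transcription factor that switches on antioxidant and detoxifying enzymes when a cell meets oxidants or electrophiles. The genes described here are the factor itself (*NFE2L2*), its inhibitor *KEAP1* and 7 of its widely used target genes, namely *NQO1*, *GCLC*, *GCLM*, *TXNRD1*, *SRXN1*, *ME1* and *OSGIN1*. They were found by symbol in the deposited tables, and are 9 of the 60609 genes listed for each library. All 9 also belonged to the 20725 genes that had enough fragments to be tested. They were chosen by their difference between S767 and DMSO in these same libraries, so for these genes that difference is a description, and no test of it is given.

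OCI-AML5 is a human cell line established from acute myeloid leukemia (AML), and S767 is a small molecule that the study took from a chemical screen of AML specimens. The cells were kept in aMEM with GM-CSF at 10 ng/mL and heat-inactivated FBS at 10%, and were exposed for 24 hours to S767 at 1 μM or to DMSO, the control. Gene expression was measured by stranded sequencing of polyadenylated RNA in 3 libraries per treatment, to ask which transcripts respond to S767. All libraries came from 1 cell line treated in triplicate, and the sources do not say what libraries with the same replicate number share. The errors given here therefore come from variation between these libraries, part of which may be technical. Standard errors of fitted values also draw on the variation of other genes, which the fit shares between genes.

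Under resting conditions the KEAP1 protein holds NRF2 for a CUL3 ubiquitin ligase, which marks it for destruction by the proteasome. Oxidants and electrophiles modify cysteines of KEAP1, NRF2 then builds up, pairs with a small MAF protein and binds antioxidant response elements (AREs) in DNA. Its targets make glutathione, reduce thioredoxin and quinones and supply NADPH. NRF2 is controlled mainly at the level of the protein, which these RNA data do not measure.

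Between 149994700 and 258029564 fragments were counted on genes per library. The forward strand held 6.44 to 6.58% of the fragments of both strands, and the reverse-strand counts were therefore used. Levels are given as TPM (transcript abundance relative to all transcripts of the library), which RSEM scales for transcript length so that genes can be compared. Differences are given as log2 ratios of normalised read counts, S767 over DMSO. The myeloid identity of the cells showed in *SPI1* (235.2 TPM in DMSO), *LYZ* (368.2 TPM), *CEBPA* (109.7 TPM) and *CD33* (94.0 TPM), with *MPO* (19.1 TPM), *CSF2RB* (12.2 TPM) and *CSF2RA* (3.07 TPM) lower, whereas *CD34* (1.55 TPM), *KIT* (0.260 TPM) and *ANPEP* (0.0433 TPM) were low. *CSF2RA* had 0 reverse-strand counts in every library, so its level rests on the RSEM estimate alone. The 10 markers of T, B, erythroid, epithelial, stromal, endothelial and liver cells had mean levels between 0 and 0.483 TPM in DMSO. The libraries differed by replicate number in both treatments alike, and a fit with that number as a block is therefore given beside the fit without it.

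In DMSO the 9 genes spanned a wide range, and *TXNRD1* was 47.0 times as abundant as *OSGIN1* per length. *TXNRD1* led with 130.3 ± 6.09 TPM (SD, n = 3), ahead of *KEAP1* with 104.7 ± 5.01 TPM and *NFE2L2* with 55.7 ± 4.0 TPM. Then came *SRXN1* with 42.7 ± 2.94 TPM and *GCLC* with 26.8 ± 1.48 TPM. The lowest were *GCLM* with 13.0 ± 2.34 TPM, *NQO1* with 9.61 ± 2.50 TPM, *ME1* with 4.42 ± 1.06 TPM and *OSGIN1* with 2.77 ± 0.775 TPM. Only for *GCLM* and *NQO1* did the ranges of neighbours in this order overlap over the 3 DMSO libraries. Leaving out each DMSO library in turn could have changed only the order of *GCLM* and *NQO1*, and did not. FPKM gave the same order, which is no separate check because it differs from TPM by a constant factor within a library.

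Promoter sequences show where the NRF2 binding motif lies at these genes. RefSeq (GRCh38.p14) gave 12 windows for the 9 genes, each with 250 bases before and 50 bases after a transcription start, with *NFE2L2*, *KEAP1* and *TXNRD1* having 2 starts each. The ARE core TGACNNNGC, searched on both strands, was present in 5 of the 12 windows and at 4 of the 9 genes, namely *GCLM*, *TXNRD1* (both starts), *ME1* and *KEAP1* (the second start only). Of the 35116 windows in the table, 13.3% held it. Below are the windows of the 3 target genes with a match, then that of *NQO1*, whose log2 difference was highest of the 9. They run 5′ to 3′ on the strand of the gene, with capitals marking each ARE core, which reads as its reverse complement where it lies on the other strand.
*GCLM*, chr1:93909381-93909680, minus strand: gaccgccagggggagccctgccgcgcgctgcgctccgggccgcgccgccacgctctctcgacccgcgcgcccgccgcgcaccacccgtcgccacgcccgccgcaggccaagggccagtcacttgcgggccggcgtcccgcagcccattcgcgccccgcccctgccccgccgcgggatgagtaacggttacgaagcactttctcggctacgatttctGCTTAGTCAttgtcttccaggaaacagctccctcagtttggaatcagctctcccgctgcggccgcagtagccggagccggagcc
*ME1*, chr6:83431002-83431301, minus strand: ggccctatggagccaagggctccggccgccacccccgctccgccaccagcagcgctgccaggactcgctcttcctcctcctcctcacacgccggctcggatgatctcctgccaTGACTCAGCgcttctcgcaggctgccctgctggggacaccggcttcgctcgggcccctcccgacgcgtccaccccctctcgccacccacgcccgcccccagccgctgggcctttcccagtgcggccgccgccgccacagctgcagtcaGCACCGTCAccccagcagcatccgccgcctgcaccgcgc
*TXNRD1*, the first start, chr12:104215529-104215828, plus strand: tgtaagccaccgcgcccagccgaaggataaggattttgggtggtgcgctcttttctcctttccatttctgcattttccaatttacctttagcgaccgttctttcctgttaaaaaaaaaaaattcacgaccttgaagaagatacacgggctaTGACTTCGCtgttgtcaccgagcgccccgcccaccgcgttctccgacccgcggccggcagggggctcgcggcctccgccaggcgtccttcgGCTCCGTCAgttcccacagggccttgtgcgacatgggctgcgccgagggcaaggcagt
*TXNRD1*, the second start, chr12:104286782-104287081, plus strand: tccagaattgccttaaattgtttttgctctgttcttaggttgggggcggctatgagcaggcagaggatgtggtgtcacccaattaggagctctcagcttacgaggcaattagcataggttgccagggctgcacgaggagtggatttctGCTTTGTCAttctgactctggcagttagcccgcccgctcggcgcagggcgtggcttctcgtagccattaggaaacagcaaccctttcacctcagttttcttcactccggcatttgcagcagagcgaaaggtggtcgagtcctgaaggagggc
*NQO1*, chr16:69726511-69726810, minus strand: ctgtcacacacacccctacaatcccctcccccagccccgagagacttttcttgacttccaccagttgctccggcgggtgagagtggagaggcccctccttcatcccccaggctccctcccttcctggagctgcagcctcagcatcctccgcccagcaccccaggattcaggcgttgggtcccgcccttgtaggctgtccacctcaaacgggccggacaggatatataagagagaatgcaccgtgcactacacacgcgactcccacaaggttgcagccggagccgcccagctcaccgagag

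The *GCLM* window held 1 match, TGACTAAGC, 34 bases upstream of the start and on the opposite strand. In *ME1*, the match 137 bases upstream read TGACTCAGC. That form was in 0.561% of all windows, and *ME1* was the only one of the 9 genes to have it. It overlaps the AP-1 motif TGACTCA, which 4.95% of windows contained and which was also found 97 bases upstream of *OSGIN1*. The *NQO1* window has no capitals because it held no ARE core, and neither did those of *NFE2L2*, *GCLC*, *SRXN1* and *OSGIN1*. This says only that these letters are missing from the 300 bases searched. A match is a string of letters, and no binding was measured.

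*NFE2L2* and *KEAP1*, the regulator pair, had nearly the same level with S767 as with DMSO. *NFE2L2* (ENSG00000116044.16, chr2:177227595-177392697 in GENCODE 29 on GRCh38, minus strand) was at 60.1, 54.4 and 52.4 TPM in DMSO replicates 1, 2 and 3 and at 59.0, 51.7 and 49.7 TPM in the S767 replicates. The 2 groups overlapped, and the log2 fold change fitted over all libraries was -0.025 (standard error, SE, 0.060). *KEAP1* (ENSG00000079999.14, chr19:10486120-10503741, minus strand) was at 109.7, 104.7 and 99.6 TPM in DMSO and at 109.3, 105.2 and 99.7 TPM in S767, so that libraries with the same number were closer to each other than to the rest of their own group. Its log2 fold change was 0.019 (SE 0.052).

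*NQO1*, which encodes an NAD(P)H quinone reductase and is often used as a readout of NRF2 activity, had the largest positive difference of the 9. The gene (ENSG00000181019.13) lies at chr16:69706996-69726951 on the minus strand. It was at 11.8, 10.2 and 6.87 TPM in DMSO and at 16.8, 13.6 and 9.59 TPM in S767. Each S767 library was above the DMSO library of the same number, but S767 replicate 3 was below DMSO replicates 1 and 2, so the groups overlapped. Within the 3 pairs the log2 differences were 0.43, 0.53 and 0.41. The fitted log2 fold change was 0.46 (SE 0.22), a level 1.38 times that in DMSO. With the replicate number as a block in the fit, the value was again 0.46 and its standard error 0.044.

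The 2 subunits of glutamate-cysteine ligase, which makes the first and rate-limiting product in glutathione synthesis, parted from each other. The catalytic subunit *GCLC* (ENSG00000001084.13, chr6:53497341-53616970, minus strand) was at 25.1, 28 and 27.2 TPM in DMSO and at 27.2, 25.6 and 26.9 TPM in S767. Its log2 fold change was -0.010 (SE 0.037), and its pair differences lay between -0.023 and 0.013. The modifier subunit *GCLM* (ENSG00000023909.10, chr1:93885205-93909456, minus strand), which raises the efficiency of the catalytic subunit, was at 15.6, 12.3 and 11.1 TPM in DMSO and at 11.7, 8.98 and 7.89 TPM in S767.

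*GCLM* had the largest negative difference of the 9, and its 3 pairs were close together. The log2 differences in the 3 pairs were -0.46, -0.41 and -0.41. The fitted log2 fold change was -0.43 (SE 0.15, and 0.027 with the block), a level of 0.743 times that in DMSO. Only S767 replicate 1 reached into the DMSO range, as it was above DMSO replicate 3. The transcripts of *GCLC* were 2.06 times as abundant as those of *GCLM* in DMSO and 2.79 times in S767, taking the ratio of the mean TPM values. The same ratio went from 1.61 to 2.33, from 2.28 to 2.85 and from 2.45 to 3.41 within the 3 pairs.

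Of the thioredoxin system, *TXNRD1* encodes the cytosolic thioredoxin reductase and *SRXN1* encodes sulfiredoxin, which restores overoxidised peroxiredoxins. *TXNRD1* (ENSG00000198431.16, chr12:104215779-104350305, plus strand) was at 134.7, 132.7 and 123.3 TPM in DMSO and at 151.3, 136.2 and 127.7 TPM in S767. All 3 pairs were higher with S767, by 0.15, 0.13 and 0.070 on the log2 scale, but S767 replicate 3 lay inside the DMSO range. The fitted log2 fold change was 0.12 (SE 0.062, and 0.024 with the block).

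*SRXN1* (ENSG00000271303.1, chr20:646615-653370, minus strand) was at 45.4, 43.2 and 39.5 TPM in DMSO and at 47.3, 45.0 and 39.7 TPM in S767. Its counts gave pair differences of 0.12, -0.17 and -0.00025 and a fitted log2 fold change of -0.016 (SE 0.13). The sign depended on the quantification, since RSEM expected counts gave 0.055 (SE 0.072, and 0.023 with the block).

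The counts of *SRXN1* from STAR were few beside those from RSEM. Its STAR counts lay between 658 and 1009 fragments per library, and its RSEM expected counts between 12395 and 21015, which were 18.8 to 22.6 times as many. For the other 8 genes the ratio of RSEM to STAR was between 0.875 and 1.00. GENCODE 29 places another protein-coding gene, *AL121758.1*, on the same strand with exons that overlap those of *SRXN1*, and this gene had 0 STAR counts in every library and 0 to 6.23 RSEM counts. The part of this overlap in the gap between the 2 counts was not tested. The TPM levels of *SRXN1* rest on the RSEM estimate, and its log2 differences rest on the STAR counts.

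**Figure D1:**
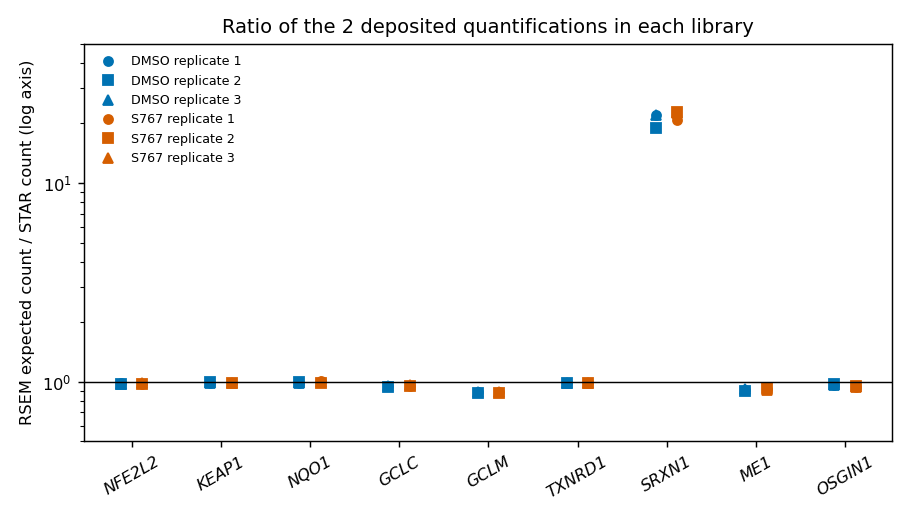
RSEM expected count divided by the reverse-strand STAR count for each of the 9 genes in each library (vertical axis, a ratio on a log scale). Points are single libraries, blue for DMSO and orange for S767. *SRXN1* lies between 18.8 and 22.6, and the other 8 genes lie between 0.875 and 1.00.

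*ME1*, the cytosolic malic enzyme that makes NADPH from malate, was lower with S767 in all 3 pairs. The gene (ENSG00000065833.9) lies at chr6:83210389-83431071 on the minus strand. It was at 5.64, 3.72 and 3.90 TPM in DMSO and at 4.92, 3.23 and 2.87 TPM in S767, and the groups overlapped because S767 replicate 1 was above DMSO replicates 2 and 3. The log2 differences in the pairs were -0.24, -0.22 and -0.40. The fitted log2 fold change was -0.28 (SE 0.21, and 0.048 with the block), a level of 0.825 times that in DMSO. The mitochondrial malic enzymes were more abundant than *ME1* in DMSO, *ME2* at 96.7 ± 0.681 TPM and *ME3* at 24.6 ± 1.44 TPM (SD, n = 3 each).

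*OSGIN1*, an oxidative stress induced growth inhibitor, was the least abundant of the 9. The gene (ENSG00000140961.14) lies at chr16:83948282-83966332 on the plus strand. It was at 3.65, 2.49 and 2.18 TPM in DMSO and at 4.03, 2.80 and 2.17 TPM in S767. By normalised counts all 3 pairs were higher with S767, by 0.18, 0.29 and 0.069 on the log2 scale, whereas the TPM of replicate 3 was nearly the same in both libraries. The fitted log2 fold change was 0.18 (SE 0.24, and 0.068 with the block).

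**Figure D2:**
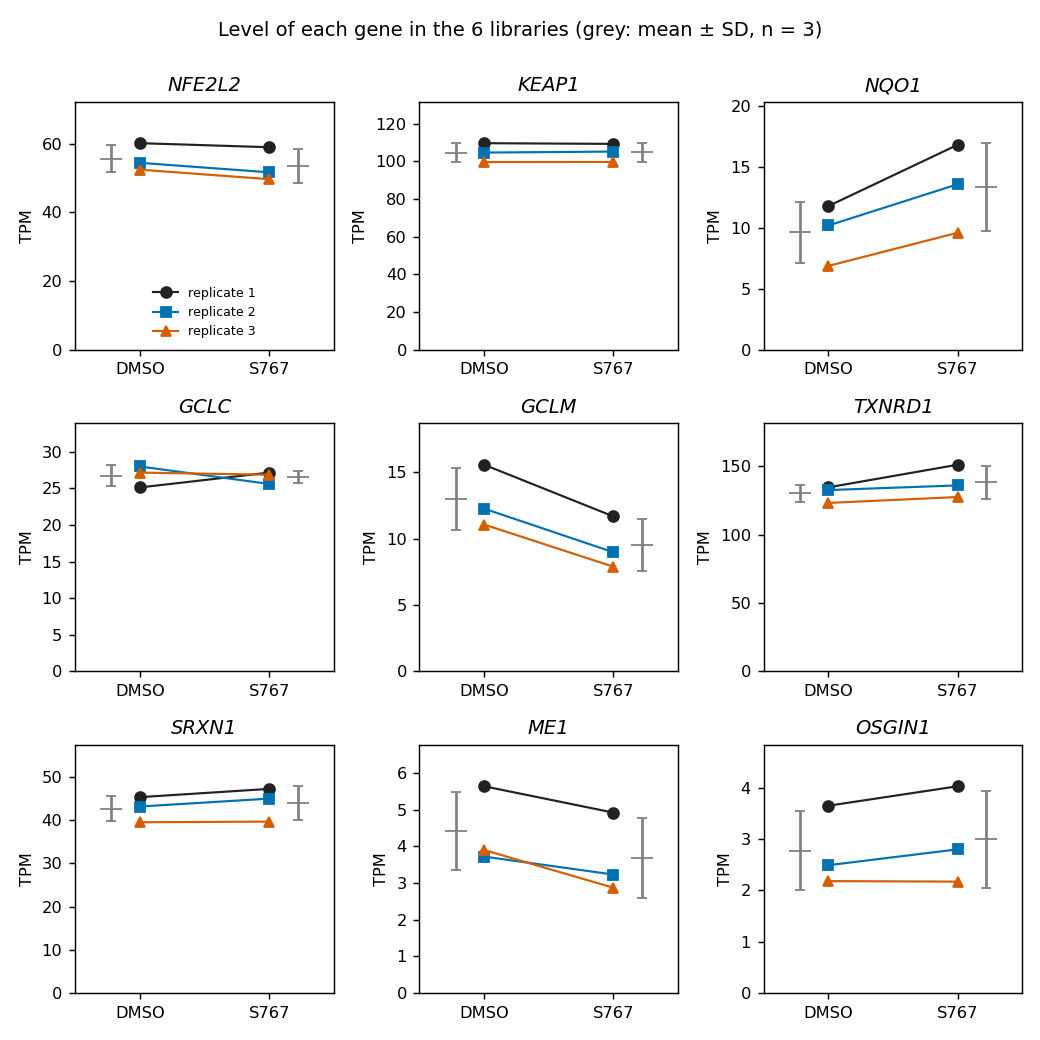
TPM of each of the 9 genes (vertical axes, each from 0) in DMSO and S767. Lines join the libraries of one replicate number, and grey bars give the mean ± SD of 3 libraries. The lines of *NQO1* run upward and those of *GCLM* and *ME1* downward, while the values of the 2 groups overlap for every gene.

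The 9 genes thus did not move one way. By normalised counts *NQO1*, *TXNRD1* and *OSGIN1* were higher with S767 in all 3 pairs, which held for 19.9% of all genes tested. *GCLM* and *ME1* were lower in all 3 pairs, as were 17.8% of all genes, and the other 4 were mixed. *SRXN1*, mixed by its few STAR counts, was higher in all 3 pairs by TPM. *NFE2L2*, also mixed by counts, was lower in all 3 pairs by TPM. These values chose the genes, so nothing is read from the counts. For 0 of the 9 were the groups free of overlap, against 9.21% of all genes. Over the 9 genes the median log2 fold change was -0.010, and that of all genes tested was -0.00024.

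**Figure D3:**
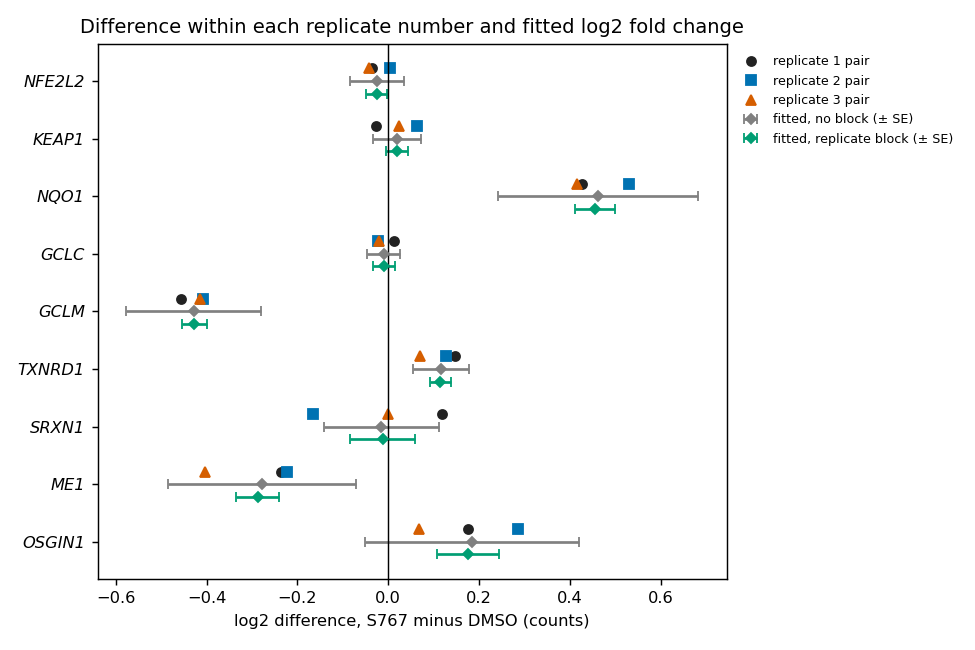
Difference between S767 and DMSO for each of the 9 genes (horizontal axis, log2 ratio of normalised counts, 0 meaning no difference). Black circles, blue squares and orange triangles are the 3 replicate pairs, and diamonds are fitted values ± standard error, grey without and green with the replicate block. The standard error of *GCLM* is 0.15 without and 0.027 with the block.

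The 9 genes varied between replicate numbers as well as between treatments. Replicate 1 had the highest TPM for 8 of the 9 genes in DMSO and for 9 in S767, and replicate 3 the lowest for 7 and 8. By normalised counts replicate 1 was highest for 7 of the 9 in DMSO and 8 in S767, while over all genes tested it was highest for 35.6% and 35.9%. Replicate 3 was lowest by these counts for 7 of the 9 in DMSO and 9 in S767, beside 30.6% and 29.8% of all genes tested. Some markers of myeloid cells differed by replicate number too. Replicate 1 was highest in both treatments for 5 of the 10 markers, and replicates 2 and 3 for 1 each. The summed TPM of the 10 was 1109, 729.3 and 691.6 in DMSO and 1111, 733.3 and 691.6 in S767. The largest part of this sum was *LYZ*, the lysozyme of mature myeloid cells, at 596.5, 263.8 and 244.2 TPM in DMSO and 596.4, 263.6 and 248.0 TPM in S767. *CD34*, a marker of immature cells, ran the other way, with 0.680, 1.32 and 2.65 TPM in DMSO and 0.610, 1.01 and 2.31 TPM in S767. *MPO* had the order of *LYZ*, with 26.6, 17.1 and 13.4 TPM in DMSO and 24.9, 16.2 and 12.55 TPM in S767. *CD33*, with 96.6, 88.6 and 96.8 TPM in DMSO, and *CSF2RB*, with 12.3, 11.5 and 12.7 TPM, followed neither order. *KIT* followed neither order too, with 0.14, 0.39 and 0.25 TPM in DMSO and 0.17, 0.42 and 0.29 TPM in S767. The part of these differences in the spread of the 9 genes was not tested.

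The spread between DMSO libraries differed among the 9 genes. The highest DMSO library was 1.71 times the lowest for *NQO1*, 1.67 times for *OSGIN1*, 1.52 times for *ME1* and 1.41 times for *GCLM*, but 1.15 times or less for the other 5.

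Set against all genes tested, the SD of log2 counts over the DMSO libraries of *NQO1*, 0.37, was at percentile 84.6 and that of *OSGIN1*, also 0.37, at percentile 84.2. *ME1* was at percentile 80.2 and *GCLM* at 74.8, while *GCLC* was at percentile 7.68 with an SD of 0.028. The median SD of all genes was 0.12. The block removes the part of this spread that libraries of one number share. It made the standard error of *GCLM* 5.44 times smaller and that of *NQO1* 5.01 times smaller, and that of *GCLC*, which varied least, 1.49 times smaller.

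A single library moved several values. The log2 fold change of *OSGIN1* was -0.050 without S767 replicate 1 and 0.43 without DMSO replicate 1. That of *ME1* was -0.52 without S767 replicate 1, -0.068 without DMSO replicate 1 and -0.14 without S767 replicate 3. For *NQO1* it was 0.28 without DMSO replicate 3, 0.30 without S767 replicate 1 and 0.65 without DMSO replicate 1, and for *GCLM* it lay between -0.56 and -0.28, the latter without DMSO replicate 1. The values of *NFE2L2*, from -0.070 to 0.028, and *KEAP1*, from -0.015 to 0.068, changed sign. So did those of *GCLC*, from -0.024 to 0.0029, and *SRXN1*, from -0.11 to 0.080. The value of *TXNRD1* was 0.069 without S767 replicate 1 and 0.17 without S767 replicate 3. Leaving out 1 library breaks a pair, and with both libraries of a number in place the pair values given above apply.

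Some of the 9 genes share their place with genes on the opposite strand. The counts without regard to strand were 82.5 to 83.4% of the reverse-strand counts for *GCLC*, 84.3 to 86.2% for *NQO1* and 91.7 to 92.3% for *NFE2L2*, and 99.2 to 105.2% for the other 6. These 3 genes have exons that overlap exons of an opposite-strand gene in GENCODE 29, such as *AGPS* at *NFE2L2*. The strandless counts gave log2 fold changes of 0.48 for *NQO1*, -0.0074 for *GCLC* and -0.020 for *NFE2L2*. *NFE2L2* also overlaps *AC019080.1* on its own strand, which had 264 to 570 STAR counts per library against 13404 to 22883 for *NFE2L2*. On their own strands *GCLC* overlaps *AL033397.1*, which had 0 STAR counts, and *OSGIN1* overlaps the protein-coding *AC009119.2*. The latter was not among the genes counted. Where both such genes are counted, fragments that they share cannot be assigned with certainty.

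The effective transcript length that RSEM used for TPM also differed between libraries. For *GCLC* it ran from 2565 to 2834 bases in DMSO and from 2613 to 2730 bases in S767, and for *NQO1* from 1158 to 1265 bases in DMSO. The normalised read counts of *GCLC*, which do not use this length, were 57.1, 59.3 and 58.4 CPM (counts scaled to library size) in DMSO and 57.6, 58.4 and 57.6 CPM in S767. They varied less than its TPM.

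To set the 9 genes in their pathways, 75 further genes were taken from a textbook list. They belong to the NRF2, glutathione, thioredoxin, NADPH, quinone and heme, and superoxide systems, and 69 of them had enough fragments to be tested. This list was drawn up with earlier results of these data known, so its shares below are not those of a blind choice. *GSTM3*, *GPX2*, *AKR1B10* and *SOD3* were at 0 TPM in every library, and *GPX3* and *ABCC3* were nearly so. Without a block 0 of the 69 passed an adjusted p of 0.05 in the quasi-likelihood F test of edgeR (adjusted after Benjamini and Hochberg), where 0.00483% of all genes did. By limma-voom 0 passed too and by DESeq2 1 did, *MAFF* (adjusted p = 0.0139). An unadjusted *P* value under 0.05 in edgeR was found for 3 of them (*MAFF*, *SLC7A11* and *TXNRD2*), a share of 4.35% where that of all genes was 3.53%. With the replicate block 6 of the 69 passed in edgeR, 3 higher and 3 lower in S767, a share of 8.70% where that of all genes was 3.23%. The median log2 fold change of all 69, from the fit without a block, was 0.033. In all 3 pairs 26.1% of the 69 were higher and 15.9% lower, beside the 19.9% and 17.8% of all genes. As in bulk RNA generally, fewer cells of a kind and less RNA per cell cannot be told apart.

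*MAFF*, a small MAF protein that pairs with NRF2 on AREs, differed most of the 69. It was at 0.950, 1.5 and 1.3 TPM in DMSO and at 0.730, 0.670 and 0.650 TPM in S767, without overlap between the groups. Of the 69, 5 had groups that did not overlap, a share of 7.25% where that of all genes was 9.21%. The log2 fold change of *MAFF* was -0.80 (SE 0.18, unadjusted *P* = 0.00161 and adjusted p = 1.00 in edgeR). With the block it fell by 0.78 on the log2 scale (SE 0.12, edgeR adjusted p = 0.00642). It had 218 to 545 counts per library. The other 9 genes of the NRF2 regulator list did not pass, among them *CUL3*, the most abundant at 71.5 TPM in DMSO, with a log2 fold change of -0.018 (SE 0.036).

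In the glutathione list, *SLC7A11*, the cystine importer that feeds glutathione synthesis, was the only one of 17 tested genes to pass, and only with the block. It was at 3.14, 2.42 and 3.91 TPM in DMSO and at 2.38, 2.03 and 2.36 TPM in S767. All 3 pairs were lower, while the groups overlapped by normalised counts and did not by TPM. With the block it fell by 0.44 on the log2 scale (SE 0.063, edgeR adjusted p = 0.00348). Its partner subunit *SLC3A2* had a log2 fold change of -0.050 (SE 0.069). The most abundant of the list was the peroxidase *GPX1* at 949.5 TPM in DMSO, with a log2 fold change of 0.11 (SE 0.072).

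Among 12 thioredoxin and peroxiredoxin genes, 2 passed with the block. *TXNRD2*, the mitochondrial counterpart of *TXNRD1*, was at 24.5, 22.1 and 22.0 TPM in DMSO and at 26.7, 25.1 and 24.6 TPM in S767, and every S767 library was above every DMSO library. It rose by 0.16 with the block (SE 0.030, edgeR adjusted p = 0.0131). *TXNIP*, an inhibitor of thioredoxin, fell by 0.10 (SE 0.025, edgeR adjusted p = 0.0447), with 33.3, 60.2 and 41.6 TPM in DMSO and 32.9, 53.8 and 37.3 TPM in S767. Thioredoxin itself, *TXN*, was at 420.7 TPM in DMSO with a log2 fold change of -0.013 (SE 0.053), and *PRDX1*, the most abundant of the list at 775.1 TPM, had -0.030 (SE 0.047).

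Of the 10 genes on the NADPH list, not all of which make NADPH themselves, 2 mitochondrial enzymes passed with the block. *IDH2*, the mitochondrial NADP-dependent isocitrate dehydrogenase, was at 155.3, 170.3 and 172.7 TPM in DMSO and at 172.0, 193.3 and 190.7 TPM in S767, a rise of 0.15 with the block (SE 0.025, edgeR adjusted p = 0.00853). *NNT*, the transhydrogenase of the inner membrane, rose by 0.094 (SE 0.022, edgeR adjusted p = 0.0395), from 72.7, 77.9 and 78.2 TPM to 79.8, 85.3 and 81.5 TPM. *TKT*, the most abundant of the list at 525.7 TPM in DMSO, showed a log2 fold change of -0.024 (SE 0.073).

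None of the 18 tested genes for quinones, heme, iron and export and none of the 2 for superoxide and peroxide passed by edgeR with or without the block, and none of these 20 had an unadjusted *P* value under 0.05 in the fit without it. *HMOX1*, the heme oxygenase that NRF2 and its competitor BACH1 control, was low, at 1.92, 1.27 and 1.29 TPM in DMSO and 1.70, 1.42 and 1.15 TPM in S767. Its log2 fold change was -0.014 (SE 0.21). The ferritin light chain *FTL* was the most abundant gene of the quinone, heme, iron and export list at 2607 ± 613.7 TPM in DMSO (SD, n = 3), with a log2 fold change of -0.011 (SE 0.18), and the superoxide dismutase *SOD1*, at 364.3 TPM, had -0.057 (SE 0.044).

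The calls with the block became fewer when replicate pair 2 was left out, for these genes and in general, with 24 of all genes passing in place of 670. Of the 6, *SLC7A11* then passed (edgeR adjusted p = 0.00835). The edgeR adjusted p was 0.228 for *MAFF*, 0.348 for *TXNRD2*, 0.364 for *IDH2*, 0.493 for *NNT* and 0.526 for *TXNIP*. Their log2 fold changes without pair 2 had the same signs as with it, namely -0.65 for *MAFF*, 0.14 for *TXNRD2*, 0.12 for *IDH2*, 0.089 for *NNT*, -0.088 for *TXNIP* and -0.56 for *SLC7A11*. With pair 3 left out, *NNT* (edgeR adjusted p = 0.103) and *TXNIP* (edgeR adjusted p = 0.108) did not pass. With pair 1 left out all 6 passed, within a total of 25 of the 69, and 2034 of all genes did. These fits hold 2 pairs each.

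**Figure D4:**
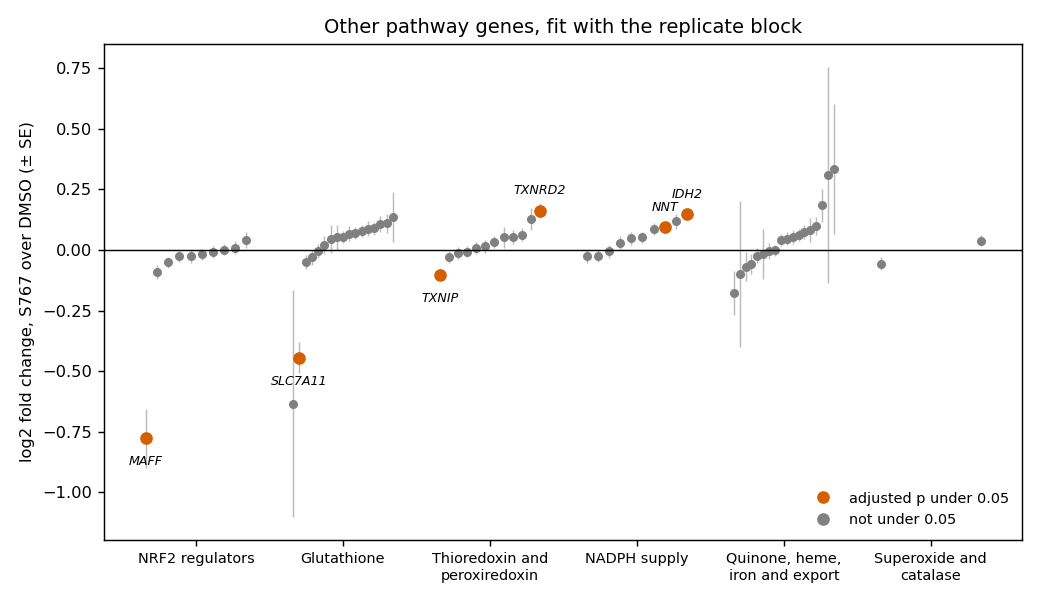
Log2 fold change of the 69 other pathway genes (vertical axis, S767 over DMSO, with the replicate block, bars ± standard error), grouped by function and sorted within each group. Orange points are the 6 genes with an adjusted p under 0.05, and grey points are the other genes. Without the block none of the 69 passes by edgeR.

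The genes whose log2 counts over the 6 libraries came closest to the mean profile of the 9 were sought among 6131 other genes with a mean log2 CPM above 5. They were *TUBA4A*, an alpha tubulin, with a root-mean-square difference of 0.036 on the log2 scale, *MCU*, the pore of the mitochondrial calcium uniporter, with 0.038, and *CTSD*, a lysosomal protease, with 0.042. The median difference of the genes compared was 0.16. The mean profile of the 9 was 0.18 above its own average in DMSO replicate 1 and 0.20 above it in S767 replicate 1, and 0.17 and 0.20 below it in replicate 3 of each, so likeness to it is mainly likeness in the differences between replicate numbers.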

How the data were processed

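RNA from 6 samples of OCI-AML5 cells, 3 per treatment, was assigned to treatment and replicate by the labels. Reads were aligned with STAR 2.7.1a to GRCh38 and quantified with RSEM 1.2.28, per the submitters' processing notes. The authors deposited, for each library, fragment counts per gene without normalization (for both strands together and for each strand), and RSEM tables with expected counts, TPM and FPKM. The 4 summary lines of each count table held 19.7 to 20.7% of fragments and were left out; multimapping fragments were 7.27 to 7.56%, and RSEM divides such fragments between genes. Positions are from GENCODE 29. Symbols were found for 60295 of the 60609 identifiers. The 9 genes had 488 to 89052 counts per library, and counting error is larger for tested genes with few counts.

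The reverse-strand counts were filtered with filterByExpr (minimum count 10), normalized with TMM and fitted with edgeR 4.0.16 (glmQLFit and glmQLFTest, R 4.3.3), without a block. *P* values were adjusted by Benjamini and Hochberg over all 20725 genes. Standard errors are the log2 fold change over the square root of F. Log2 CPM values used a prior count of 2. Only the comparison of S767 with DMSO was fitted, and the scripts were tested on simulated data. The members and lists were chosen with earlier results of these data known. Of 76 further genes named, *SOD2* had no single identifier. The genes named from this list were *HMOX1*, *SLC7A11* and *TXN*, the most abundant gene of each list in DMSO, and those with an unadjusted *P* under 0.05 or an adjusted p under 0.05 with the block. Another gene of the list is not reported here. *SLC3A2*, *ME2* and *ME3* were named after their values were seen.

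Replicate numbers paired the libraries. Deviations from the group mean of log2 CPM, over 6191 genes with a mean above 5, had correlations of 0.78, 0.87 and 0.75 for DMSO and S767 libraries with numbers 1, 2 and 3, and below 0 for libraries with unlike numbers. Because each group mean was of only 3 libraries, the negative values largely follow from the positive ones and are not separate evidence. The pairing comes from the values, and the labels do not say what the numbers share. Alternatives were DESeq2 1.42.0, limma-voom (limma 3.58.1), RLE factors, library size alone, other limits on low counts, rounded RSEM expected counts, the block with and without these, limma on log2(TPM + 1) and log2(TPM + 0.1), strandless counts, and leaving out libraries or pairs.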

Additional observations from a re-analysis of the deposited data

How the results depend on the processing

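The number of genes past an adjusted p of 0.05, 1 in edgeR without a block, was 670 with the replicate block and 394 with the block on RSEM expected counts, an alternative chosen after seeing the data. It was 25 with DESeq2, 9 with no limit on low counts and 0 by limma with log2(TPM + 1) or log2(TPM + 0.1) values, where 1062 and 1077 genes had an unadjusted P under 0.05. Leaving out 1 library at a time gave 1 to 2. With the block, leaving out pair 1, 2 or 3 gave 2034, 24 and 636. Of the 69 pathway genes 0 passed without a block, 1 with DESeq2, 6 with the replicate block, 4 with the block on RSEM counts, and 25, 1 and 4 with pair 1, 2 or 3 left out of it. For the 9 genes, the median log2 fold change of -0.010 became 0.0086 with limma-voom, 0.0085 with RSEM counts, 0.0011 with TPM values at either pseudocount, 0.0090 with the block on RSEM counts and -0.021 with the block without pair 1, and lay between -0.050 and 0.052 with 1 library left out. The cause of these shifts was not tested. *NQO1*, *GCLM*, *TXNRD1* and *ME1* kept their sign under all 21 alternatives. The sign was kept under 20 of 21 for *GCLC* and *OSGIN1*, 19 for *NFE2L2*, 18 for *KEAP1* and 13 for *SRXN1*.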
